A study of Mus musculus with 8 samples.

Results

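Klk1b3, Klk1b8 and Klk1b9 are kallikrein genes that lie close together on mouse chromosome 7. Each was read by 1 probe, so the 3 genes account for 3 of the 60804 probes in the deposited table of a one-color Agilent array of lncRNAs and mRNAs. The genes were chosen by the strain difference of their normalized signals, since the study had listed each probe as lower in DBA/1 than in C57BL/6 brainstem, so these differences are given as a description and support no test. The samples were brainstems of 4 male DBA/1 mice, an inbred strain prone to sound-induced seizures, and of 4 male C57BL/6 mice, the control strain. All mice were 5 weeks old, none had been tested with sound, and 1 mouse was used for each array. The labels give no engineered allele and no treatment, and the methods name only the isoflurane anesthesia before death.

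Tissue kallikreins are secreted serine proteases that are made as inactive precursors and cut other secreted proteins. Klk1, the founding member of the mouse family, releases kinins from kininogen, and the Klk1b genes arose from it by duplication in rodents. Their products are best known from the mouse submandibular gland, where some of them form complexes with growth factors. Klk1b9 encodes an epidermal growth factor-binding protein, and Klk1b3 and Klk1b8 encode further Klk1-related peptidases.

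In the GRCm38.p6 gene table of RefSeq, all 3 genes are protein coding and on the plus strand. Klk1b8 spans chr7:43950666-43954944, Klk1b9 spans chr7:43976061-43980376, and Klk1b3 spans chr7:44198191-44202351. From the start of Klk1b8 to the end of Klk1b3 they cover 251.7 kb of the 284.6 kb that hold the 14 protein-coding Klk1 and Klk1b genes. Klk1b9 starts 25.4 kb beyond Klk1b8, with 1 protein-coding kallikrein gene between them, and Klk1b3 starts another 222.1 kb beyond Klk1b9, with 7 between them. The same table lists 10 Klk1b pseudogenes in the region. Of 27 kallikrein genes looked for, 4 had a probe with a gene name here. The fourth was read by a probe named Egfbp2, which the RefSeq table gives as an older name of Klk1b26, a further gene for an epidermal growth factor-binding protein, 62.0 kb from the start of Klk1b8. The other kallikrein genes were not analysed here, because names were at hand only for probes that the study had listed.

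The probes read the 3′ end of these similar transcripts, and 30 bases of the Klk1b8, Egfbp2 and Klk1b3 probes, each 60 bases long, are shown so that their likeness can be seen. Capitals mark AATAAA, the usual polyadenylation signal.
Klk1b8: gtgtcacattatcccatgttctcAATAAAa
Egfbp2: gtgtcacattgtcccatgttcttAATAAAg
Klk1b3: aagtatcacaactgtctgttctcAATAAAa
Of the 433 mRNA probes with a gene name, 77 hold the hexamer AATAAA (17.8%) and 13 hold its reverse complement TTTATT (3.0%). The Klk1b9 probe is not described here, so no share is given for the 3 members. The Klk1b8 and Egfbp2 probes matched at 53 of 58 overlapping bases (91.4%) without gaps. Klk1b8 and Klk1b3 matched at 27 of 47 bases (57.4%), with a longest shared run of 14 bases, and Egfbp2 and Klk1b3 at 26 of 59 (44.1%). Each is the offset with the most matches. For Egfbp2 and Klk1b3 that offset, 1 base, is not the register of the stretches shown, so its share cannot be set beside the others. How far each probe also binds the transcripts of its relatives was not tested. The DBA/1 sequence under the probes was not analysed here.

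The 100 bases before each annotated start are shown because the 3 genes differed in the same direction between the strains. They are RefSeq sequence of build GRCm38.p6, plus strand, from a C57BL/6J genome, and the DBA/1 sequence was not analysed here. Capitals mark TTTAAA, an AT-rich hexamer that is its own reverse complement.
Klk1b8, chr7:43950566-43950665: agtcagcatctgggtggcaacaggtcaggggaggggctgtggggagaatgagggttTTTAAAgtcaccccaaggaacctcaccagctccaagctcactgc
Klk1b9, chr7:43975961-43976060: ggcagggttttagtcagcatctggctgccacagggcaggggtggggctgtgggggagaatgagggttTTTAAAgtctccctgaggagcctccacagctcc
Klk1b3, chr7:44198091-44198190: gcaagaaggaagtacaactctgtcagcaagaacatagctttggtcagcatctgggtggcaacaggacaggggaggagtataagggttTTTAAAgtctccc
The hexamer began 44 bases before the start of Klk1b8, 33 before that of Klk1b9 and 13 before that of Klk1b3. It was present in the last 50 bases before the start in 12 of the 14 Klk1 and Klk1b promoters (85.7%), the exceptions being Klk1 and Klk1b21, and in 778 of 32851 mouse promoters in the table (2.37%). Over the 250 bases before the start, with gaps allowed, Klk1b8 and Klk1b9 were 75.6% identical, Klk1b3 and Klk1b9 64.4%, and Klk1b3 and Klk1b8 55.7%. These values were within the range of the family, since identity to the other 11 promoters ran from 53.8% to 74.0% for Klk1b3, from 36.6% to 79.2% for Klk1b8 and from 44.6% to 82.5% for Klk1b9.

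Some features of the whole data set bear on the values below. Each row of the slide carried arrays of a single strain, so that slide row and strain cannot be told apart. Between 33045 and 36162 probes were well above background on a C57BL/6 array and between 29301 and 33350 on a DBA/1 array. Well above background is the scanner software's flag for a spot that exceeds its background by a set margin. C57BL/6 arrays were brighter, with 75th percentiles of 73.5 to 112 intensity units against 50.1 to 76.1 for DBA/1, and the part of this gap in the differences below was not tested. Among 12 markers of brainstem neurons, Tph2, the enzyme of serotonin synthesis in raphe neurons, was well above background on all 8 arrays. Its log2 signal was 9.76 ± 0.65 in C57BL/6 and 11.39 ± 0.21 in DBA/1 (SD, n = 4), so that this marker was higher in the strain where the kallikreins were lower, and its part in their difference was not tested. The only other marker with a name, the serotonin transporter gene Slc6a4, was read by a probe for a noncoding transcript. That transcript read higher in DBA/1 by 1.57 (SE 0.28) without overlap. It was well above background on 1 of 4 C57BL/6 arrays and 4 of 4 DBA/1 arrays. Its C57BL/6 mean therefore rests largely on spots not well above background, and its part was not tested either. The probes of both markers had been listed by the study for a strain difference, and the other brainstem neuron markers had no named probe. None of the 6 salivary gland markers, nor of the markers of glia, choroid plexus, blood, forebrain or cerebellum, had a named probe. The cells that gave the kallikrein signal were therefore not examined. In whole tissue, fewer cells of a type and less RNA per cell cannot be told apart.

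Klk1b9 was the only one of the 3 with a signal well above background in both strains, and was lower in DBA/1. The background-subtracted intensity, before any scaling between arrays, was 94.1, 79.6, 78.8 and 114 on C57BL/6 arrays 1 to 4 and 14.4, 22.1, 12.3 and 13.2 on DBA/1 arrays 1 to 4. Every C57BL/6 array was above every DBA/1 array, and the spot was well above background on all 8. The scanner software's own error was 10.2% to 10.4% of the intensity in C57BL/6 and 13.4% to 22.1% in DBA/1. Mean intensities were 91.7 ± 16.7 in C57BL/6 and 15.5 ± 4.47 in DBA/1 (SD, n = 4), a ratio of 5.92.

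After quantile normalization, the log2 signal of Klk1b9 was 6.48, 6.39, 6.06 and 6.22 in C57BL/6 and 3.70, 4.66, 4.27 and 3.71 in DBA/1. The lowest C57BL/6 value stood 1.40 above the highest DBA/1 value, DBA/1 replicate 2. The means were 6.29 ± 0.19 and 4.08 ± 0.47 (SD, n = 4), and DBA/1 minus C57BL/6 was -2.20 (SE 0.23), or 4.61-fold lower.

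Klk1b3 was well above background in C57BL/6 only. Its intensity was 15.7, 21.0, 19.1 and 24.2 on C57BL/6 arrays 1 to 4 and 6.96, 7.23, 1.90 and 5.89 on DBA/1 arrays 1 to 4. The strains did not overlap, and the spot was well above background on 4 of 4 C57BL/6 arrays and on 0 of 4 DBA/1 arrays. A weaker flag, for a signal significantly above the local background, was set on 3 of the 4 DBA/1 arrays and was missing on replicate 3, where the software's error was 100.4% of the intensity.

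On the normalized log2 scale, Klk1b3 read 3.92, 4.49, 4.03 and 4.02 in C57BL/6 and 2.48, 3.10, 2.32 and 2.66 in DBA/1. The value 2.32 is the floor, since intensities below 5 were set to 5. The means were 4.11 ± 0.25 and 2.64 ± 0.34 (SD, n = 4), with a measured difference of -1.48 (SE 0.21) and a gap of 0.82 between the nearest arrays of the strains. Because the DBA/1 mean rests on spots not well above background, the change is best given as a bound, with each DBA/1 array at its own value or at that of the dimmest probe well above background on it, whichever was higher. By that bound Klk1b3 was at least 1.94-fold lower in DBA/1. With the brightest probe that lacked the flag as the limit, it was at least 1.16-fold lower.

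Klk1b8 was likewise well above background in C57BL/6 only, and its SD was larger than that of Klk1b3 in both strains. Its intensity was 16.3, 10.3, 18.6 and 31.4 on C57BL/6 arrays 1 to 4 and 14.6, 4.89, 3.23 and 3.79 on DBA/1 arrays 1 to 4. DBA/1 replicate 1 therefore overlapped the C57BL/6 arrays, and the other DBA/1 arrays lay below all of them. The spot was well above background on 4 of 4 C57BL/6 arrays and on 0 of 4 DBA/1 arrays. On DBA/1 replicate 1 the median of the spot was 32 over a local background of 14 and the flag was not set, whereas on C57BL/6 replicate 2 the spot was at 27 over 13 and it was set.

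The normalized log2 signal of Klk1b8 was 3.97, 3.49, 3.99 and 4.39 in C57BL/6 and 3.73, 2.32, 2.32 and 2.32 in DBA/1, with 3 DBA/1 values at the floor. The means were 3.96 ± 0.37 and 2.67 ± 0.71 (SD, n = 4), and the measured difference was -1.29 (SE 0.32). As a bound, Klk1b8 was at least 1.62-fold lower in DBA/1, or at least 1.05-fold lower with the stricter limit. Without DBA/1 replicate 1 the measured difference was -1.62 and the strains no longer overlapped, and without C57BL/6 replicate 2 it was -1.45, again with no overlap.

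**Figure D1:**
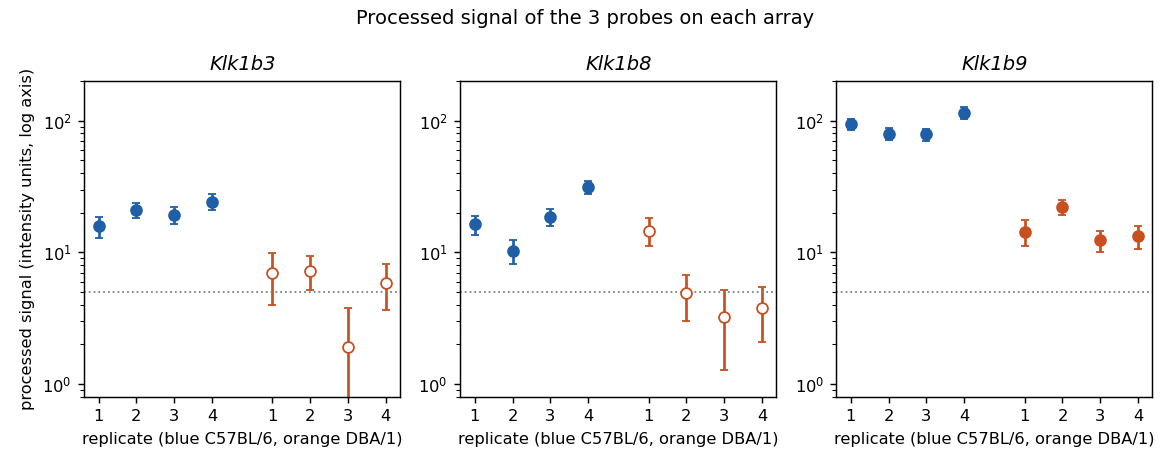
Background-subtracted intensity (log axis) of the Klk1b3, Klk1b8 and Klk1b9 probes on each of the 8 arrays, before scaling between arrays. Bars are the scanner software's error, filled points are spots well above background, open points are not, and the dotted line is the floor of 5; Klk1b9 is filled on every array, and Klk1b3 and Klk1b8 are open on all DBA/1 arrays.

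**Figure D2:**
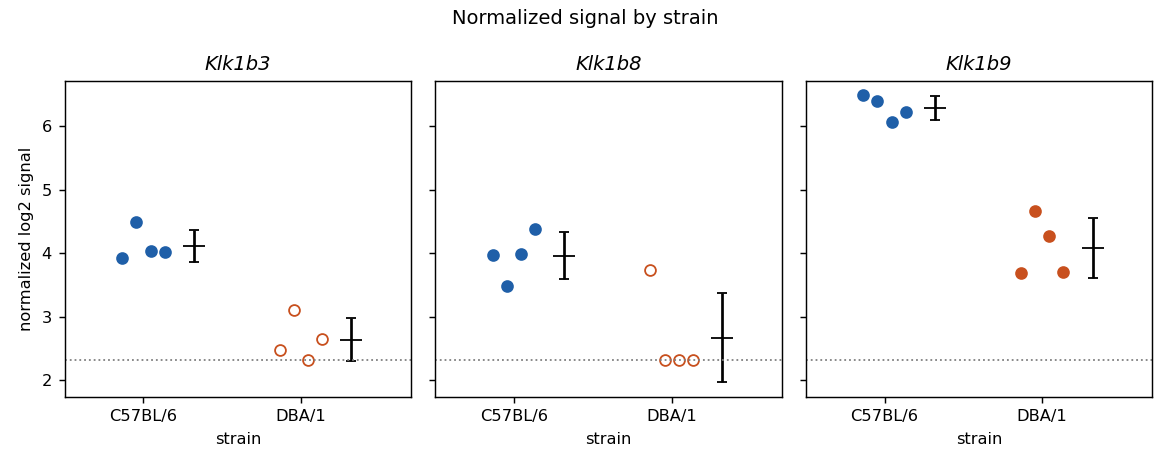
Quantile-normalized log2 signal of the same probes by strain, with the mean and SD of 4 arrays beside the points, filled and open points as for the intensities, and the floor at 2.32 as a dotted line. DBA/1 replicate 1 of Klk1b8, at 3.73, stands among the C57BL/6 arrays, while 3 DBA/1 arrays of that probe are at the floor.

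The study's criterion, at least a 2-fold change and an unadjusted p under 0.05, was met in the lower direction by 1098 of the 33179 tested probes in limma (3.31%), and by 974 with the adjusted p (2.94%). The 3 members are among both. Their choice by this contrast fixes the unadjusted result and favors the adjusted result, so their p-values are not given. The paper's pathway lists at its own adjusted threshold name Klk1b3 and Klk1b9 but not Klk1b8. Strains did not overlap for Klk1b3 and Klk1b9, that is for 2 members, and 2532 probes lower in DBA/1 showed it (7.63%). Nothing can be read from these counts, and Klk1b3 and Klk1b8 passed the filter on dim probes through the C57BL/6 arrays alone. The median difference was -1.48 over the 3 members, which is the measured difference of Klk1b3, and -0.01 over all tested probes. The choice of members by this contrast fixes that gap too.

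The 3 differences have no order, because those of Klk1b3 and Klk1b8 are bounds and 4 of their 8 DBA/1 values were at the floor. Background correction by normexp with an offset of 50 gave -0.85 for Klk1b9, -0.25 for Klk1b3 and -0.25 for Klk1b8. That offset exceeded the processed intensity of Klk1b3 and of Klk1b8 on each array.

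**Figure D3:**
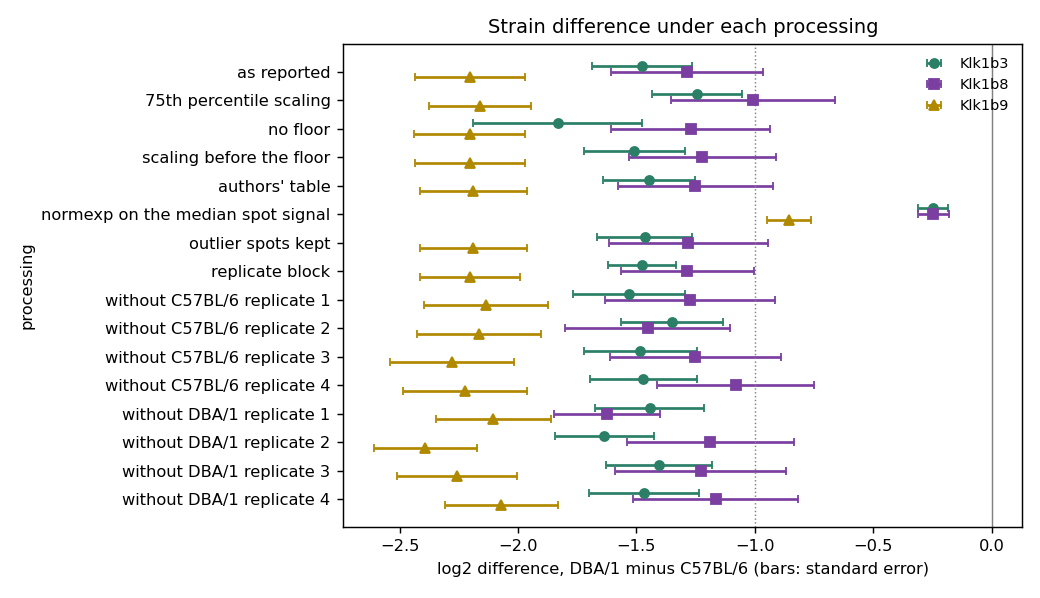
Log2 difference DBA/1 minus C57BL/6 of the 3 probes, with its standard error, as reported and under each of 15 other ways of processing. The dotted line marks a 2-fold decrease; every point lies below 0, and normexp gives the smallest differences, from -0.85 to -0.25.

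Whether the related genes moved together from mouse to mouse was described by the deviation of each array from its strain mean, which leaves the strain difference out. Across the 8 arrays the deviations of Klk1b3 and Klk1b9 had a Pearson r of 0.46 and the same sign on 5 arrays. Both were highest, among DBA/1 arrays, on replicate 2. The deviations of Klk1b8 had an r of -0.45 with those of Klk1b3, with the same sign on 1 array, and of -0.52 with those of Klk1b9, with the same sign on 2 arrays. The points share the scaling of their arrays, and the Klk1b8 values at the floor carry no order among themselves, so these are descriptions of 8 arrays.

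Klk1b8 and Egfbp2, the related gene whose probe matched that of Klk1b8 at 91.4% of the bases, deviated alike on most arrays. Their deviations had an r of 0.90 and the same sign on 6 of 8 arrays, with the same highest and lowest C57BL/6 arrays, replicates 4 and 2, and the same highest DBA/1 array, replicate 1. Egfbp2 read 4.74, 4.39, 4.69 and 5.25 in C57BL/6 and 4.25, 3.54, 3.65 and 3.22 in DBA/1, with no overlap and a difference of -1.10 (SE 0.25). It was well above background on 4 C57BL/6 arrays and 2 DBA/1 arrays. The part of the shared probe sequence in this likeness was not tested. With the other members the r of Egfbp2 was -0.47 for Klk1b3 and -0.23 for Klk1b9.

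**Figure D4:**
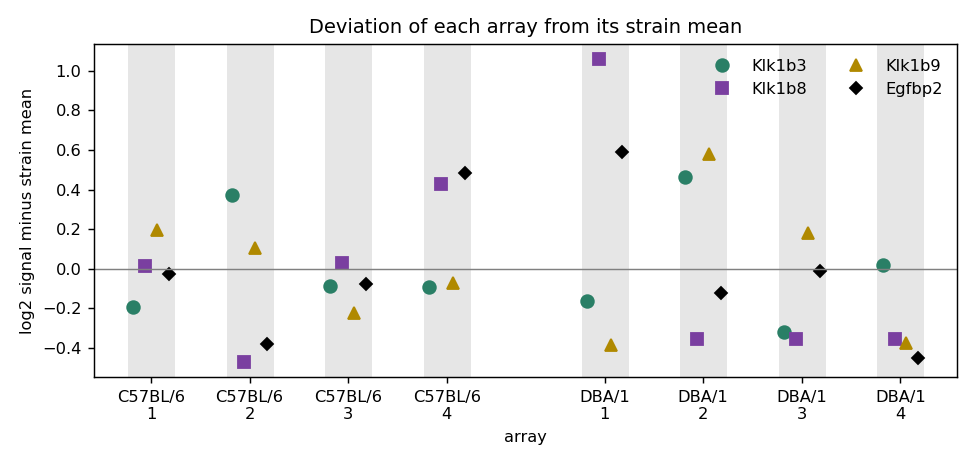
Deviation of each array's normalized log2 signal from the mean of its strain for Klk1b3, Klk1b8, Klk1b9 and Egfbp2, with 1 gray band per array. Klk1b8 and Egfbp2 are both highest on DBA/1 replicate 1, where Klk1b3 and Klk1b9 are below their strain mean.

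Among the 1158 tested probes with a gene name and values on all 8 arrays, the 3 most like each member over the 8 arrays were found by Pearson r. All of these probes had been listed by the study for a strain difference, so each r includes that difference. Klk1b9 was most like Eif2ak4, a kinase that phosphorylates eIF2α when amino acids are scarce (0.99), the lncRNA AK157804 (0.99) and Mtmr10 (0.99). The same 3 were nearest to Klk1b9 when the strain means were removed, in the order Mtmr10 (0.94), Eif2ak4 (0.92) and AK157804 (0.90).

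Klk1b3 was most like Pigx, a subunit of the enzyme that adds mannose to glycosylphosphatidylinositol anchors (0.99), Prrt4 (0.99) and the lncRNA C230035I16Rik (0.99). With the strain means removed it was nearest to the lncRNA 6720416L17Rik (0.97), Pigx (0.96) and the lncRNA AK134063 (0.95). AK134063 was higher in DBA/1, by 1.86 on the log2 scale, so that probes nearest to Klk1b3 within strains included one that differed the other way between strains. Klk1b8 was most like the lncRNA DQ687904 (0.97), Egfbp2 (0.97) and Pde6b, a subunit of the rod phosphodiesterase (0.96). With the strain means removed it was nearest to the lncRNA XLOC_018532 (0.93), DQ687904 (0.91) and Egfbp2 (0.90). No probe was among the 3 nearest of more than 1 member in either measure.

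The study's lists also held 8 probes, besides Egfbp2, within 500 kb of the 3 genes, all of which separated the strains without overlap. Differences of 6 were in the same direction as those of the kallikreins and 2 were in the other direction. Each was listed for a strain difference, and most probes on the study's lists were lower in DBA/1. Nothing about this stretch can therefore be read from these counts. The nearest of the 8 probes were lncRNAs on either side. By the less strict bound, 2410002F23Rik, 296.1 kb from the start of Klk1b8, was at least 1.38-fold lower in DBA/1. By the same bound 2310002F09Rik, at -205.2 kb from it, was at least 4.65-fold lower. Both resembled Klk1b3 and Klk1b8 in their flags, being well above background on 4 C57BL/6 arrays and 0 DBA/1 arrays. At the floor were 3 and 4 of their DBA/1 values. With the stricter limit no decrease of 2410002F23Rik is assured. Its C57BL/6 mean of 3.62 was not above any of those limits on the DBA/1 arrays, which ran from 3.62 to 4.42.

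Farther out, Mybpc2, a myosin-binding protein of fast muscle, was well above background on no DBA/1 array. By the less strict bound it was at least 2.06-fold lower there. Napsa, which encodes the aspartic protease napsin A, was well above background on 1 of 4 DBA/1 arrays and differed by -2.32 in log2 signal (SE 0.33). The lncRNAs Gm15396 and AK017368, well above background on 4 and 3 DBA/1 arrays, differed by -1.37 (SE 0.18) and -1.28 (SE 0.21). The zinc finger gene Zfp658 and Fam71e1 were higher in DBA/1, by 1.60 (SE 0.19) and 1.58 (SE 0.23). Probes of this stretch that the study had not listed have no names here, so the share of all genes around the cluster that differed is not given.

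**Figure D5:**
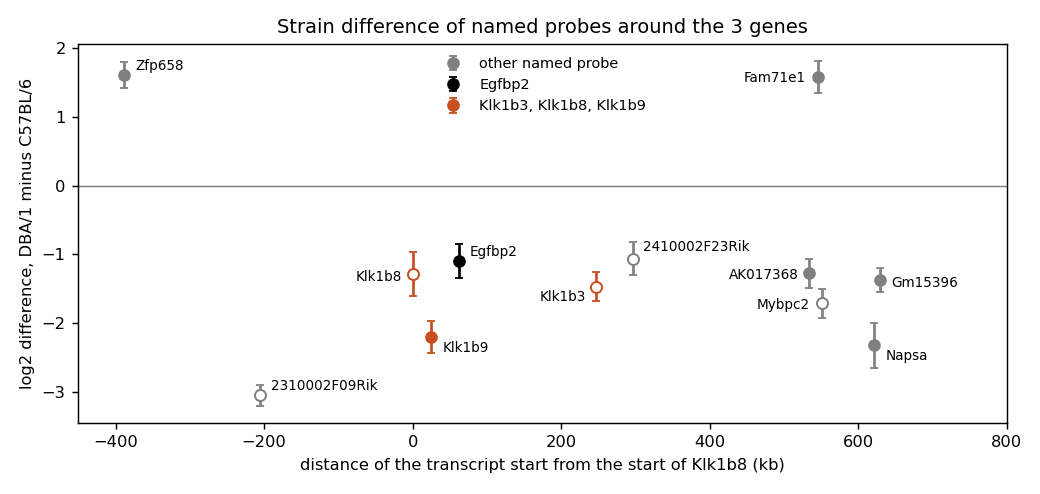
Log2 difference DBA/1 minus C57BL/6, with its standard error, of the 3 genes, Egfbp2 and the 8 other named probes within 500 kb, against the distance of each transcript start from the start of Klk1b8 in kb. Open points are probes well above background on no DBA/1 array, whose differences are set in part by the floor of 5. The 3 genes and Egfbp2 lie between -2.20 and -1.10, 6 of the other probes are also below 0, and 2 are above it.

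Of 33 further genes looked for, 4 had a named probe. The list took in the kinin and renin-angiotensin systems, growth factors that kallikreins bind, protease inhibitors, and Clta, which belongs to none of these classes. The paper's pathway analysis placed Clta with Klk1b3, Klk1b8 and Klk1b9 under calcium reabsorption regulated by endocrine and other factors. Slpi, a secreted inhibitor of serine proteases, was higher in DBA/1 by 3.64 in log2 signal (SE 0.19). Serpina3n, an inhibitor of serine proteases of the serpin family, was higher by 1.05 (SE 0.16). Both inhibitors were well above background on all 8 arrays and neither overlapped between the strains. The 2 probes of Clta, the clathrin light chain A, differed by -1.19 (SE 0.16) and -1.16 (SE 0.20), the second with 1 DBA/1 value missing as an outlier spot. A noncoding transcript of Agtr1a, the gene of an angiotensin receptor, differed by -1.02 (SE 0.28), with overlap between the strains. These probes too had been listed for a strain difference, and the kininogens, the kinin receptors and Egf were not analysed here.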

How the data were processed

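RNA from the brainstems of 8 mice, 4 per strain, was freed of rRNA, amplified with random primers and hybridized to 8 one-color arrays on 1 slide. The deposited scanner files, made with Agilent Feature Extraction 11.0.1.1 according to the submitters' processing notes, hold spot intensities that were background-subtracted within each array, together with their error, the median intensity of spot and local background, and flags. The authors' table holds log2 values of 60804 probes after quantile normalization.

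The values here came from the scanner files. Spots marked as outliers were dropped, a floor of 5 was put under the intensities, and log2 values were quantile-normalized across the arrays. The authors' log2 values differed from these by at most 0.0771 for the 3 members. Probes well above background on at least 4 of 8 arrays, with values in both strains, were fitted with lmFit and eBayes of limma 3.58.1 (R 4.3.3), with no blocking term and with the Benjamini-Hochberg adjustment over 33179 probes. Python 3.11.15 with pandas 2.3.3, numpy 2.4.6, scipy 1.17.1 and matplotlib 3.10.9 gave the tables, sequences and figures. The fits were tested on simulated data.

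Gene names, probe sequences and positions came from the study's supplementary lists, which name 1183 probes, all of them tested. Accessions tied 424 of the 433 mRNA probes to the RefSeq table of GRCm38.p6. Columns of the authors' fold changes and p-values in those lists were not used. The members, the gene lists and the alternatives were chosen with earlier results of these data known. Genes named were the members, named kallikrein and pathway probes, named probes within 500 kb, and the 3 probes most like each member. The alternatives were 75th percentile scaling, the authors' table, no floor, a floor set after scaling, normexp (offset 50, median spot signal), outlier spots kept, other filters and folds, the methods' t-test, the replicate number as a block, and each mouse left out. The labels call the 4 arrays of a strain biological replicates, and their number limits the precision. One probe sequence and a related item are not reported here.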

Additional observations from a re-analysis of the deposited data

Results flagged for a closer look

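Within each strain, the gap of an array to the nearest of the other 3 was divided by the range of that strain's arrays. An array was singled out where this ratio passed Dixon's 95% critical value, which chance gives in about 1 in 20 groups. Of the 37 groups examined, 7 met this. Klk1b8 read 3.73 on DBA/1 replicate 1 and 2.32, the floor, on the other DBA/1 arrays. There, and for 2410002F23Rik, the other 3 arrays are tied at the floor, so that any value above it would be singled out and the chance rate does not apply. Slpi read 3.68 on C57BL/6 replicate 4 against 4.11 to 4.20 on the others, and 8.03 on DBA/1 replicate 2 against 7.54 to 7.59. A Clta probe read 9.36 on DBA/1 replicate 1 against 9.62 to 9.66. Tph2 read 10.73 on C57BL/6 replicate 2 against 9.38 to 9.53. The lncRNA 2310002F09Rik read 5.45 on C57BL/6 replicate 3 against 5.34 to 5.35, and 2410002F23Rik read 3.25 on DBA/1 replicate 1 against the floor of 2.32.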

How the results depend on the processing

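Klk1b3, Klk1b8 and Klk1b9 were lower in DBA/1 under all 15 alternatives. With normexp the differences shrank to -0.25, -0.25 and -0.85, and the log2 bound of Klk1b3 from 0.96 to 0.23. Without a floor the difference of Klk1b3 was -1.83. Leaving out each mouse gave -1.64 to -1.35 for Klk1b3, -1.62 to -1.08 for Klk1b8 and -2.39 to -2.07 for Klk1b9, with log2 bounds of 0.83 to 1.04 for Klk1b3 and 0.54 to 0.88 for Klk1b8. Klk1b3 and Klk1b9 overlapped between the strains under none of the settings examined. Klk1b8 overlapped except with normexp, without C57BL/6 replicate 2 and without DBA/1 replicate 1. Among the 27 other named probes, 375 of 405 values moved by less than the spread between replicates, 30 moved by more, and none changed sign.

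The count of probes lower in DBA/1 at the adjusted criterion was 974. It was 243 with normexp, 432 over probes well above background on all arrays, which leaves out Klk1b3 and Klk1b8, and 436 at a fold of 3. Leaving out each mouse gave 817 to 1066. At the unadjusted criterion 1098 probes became 279, 467 and 442 under the same settings, 2352 at a fold of 1.5, and 1064 to 1283 without 1 mouse. The methods' t-test gave 1045 probes at their threshold and 680 after the Benjamini-Hochberg adjustment. Probes that did not overlap numbered 2772 to 3600 without 1 mouse, where fewer arrays are compared. Apart from these constructions, causes were not tested.

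With the replicate number as a block, the differences were -1.48, -1.29 and -2.20 and the counts 1013 adjusted and 1104 unadjusted. Same-numbered arrays of the strains deviated together with r of 0.38, 0.02, 0.13 and 0.35 over 31872 probes, and 3 of 4 C57BL/6 arrays correlated best with their own number. This is a hint from the data that some same-numbered arrays are related. The mouse numbers in the sample titles differ from these replicate numbers, and arrays with the same title number were not paired. The labels name no shared litter, batch or day and 1 pair stood at 0.02, so the reported fit has no block. Dim signal limits Klk1b3 and Klk1b8 to bounds, since neither was well above background on any DBA/1 array.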
